A study of Mus musculus with 1298 samples.

Results

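The genes described here are the Wnt ligands, the proteins that carry them out of the cell, their receptors and co-receptors, and the secreted proteins that block or raise their signal. They were chosen by symbol (Wnt, Fzd, Sfrp, Dkk or Rspo and a number, with *Frzb*, *Lrp5*, *Lrp6*, *Ror1*, *Ror2*, *Ryk*, *Porcn* and *Wls*), and 47 of the 26724 genes in the deposited tables met that rule. Both single-cell tables held 44 of them, namely 15 ligands, 2 genes of ligand secretion, 10 Frizzled receptors, 5 co-receptors and other receptors, 8 secreted inhibitors and 4 R-spondins. *Dkk4*, *Wnt8a* and *Wnt8b* were not among the 17634 genes of the 10× table.

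The cells came from Pax7CreER:R26R-stop-EYFP mouse embryos, in which tamoxifen (75 µg/g on E9.5 for every group) turned on YFP in cells that then expressed *Pax7* and in their progeny, whether or not they still express it. Embryos were collected on 3 days, E12.5 to E16.5, limbs, viscera and head were removed, several embryos were pooled because each gave few cells, and YFP+ cells were sorted. They were profiled on the droplet platform 10×, which counts unique molecular identifiers (UMIs) at transcript 3′ ends, and on Smart-seq2 (ss2), which reads full-length transcripts in plates. No embryo lacked the label, and the embryos were not told apart, so a pool (1 platform on 1 day) is the unit of replication here and p-values measure the spread between pools.

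Wnt proteins are lipid-modified by *Porcn*, carried to the cell surface by *Wls* and bound there by Frizzled receptors. With the co-receptors *Lrp5* and *Lrp6* this stabilises beta-catenin, whereas *Ror1*, *Ror2* and *Ryk* take part in beta-catenin-independent signalling, for which *Wnt5a* is the best known ligand. Sfrp proteins and *Frzb* bind ligands in the extracellular space, Dkk proteins act on *Lrp5* and *Lrp6*, and R-spondins raise the number of Frizzled receptors at the membrane. In the embryonic trunk, Wnt signals pattern the dermomyotome, the sheet of the somite from which Pax7+ muscle and dermal precursors come, and are required for dermal fate, while in fat precursors they hold back adipocyte differentiation.

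Of 3916 deposited cells 3852 were kept, and 3832 of these fell in clusters that carried the markers of 1 of 9 classes. The classes follow the study's names, with "-like" for names rebuilt from markers: early and late progenitors (EP, LP), early and late muscle (EM, LM), dermal fibroblasts (DF), brown adipocytes (BA), neurons and neural progenitors (N, NP) and pericytes (PE). The 44 genes were kept out of the clustering. *Pax7* itself stood between 35.2 and 65.2 counts per 1000000 (CPM) in the 6 EM-like sums and at 2.46 CPM or less in the DF-like and LP-like sums. Median depth per cell on 10× ran from 1608 UMIs at E16.5 to 5930 at E14.5, so a gene missed in a small E16.5 class may have been missed for depth, and 3 barcodes occurred in more than 1 of the 10× libraries. Each class with at least 20 cells in a pool gave 1 sum of counts per gene there. Fewer cells with a transcript and less of it per cell cannot be told apart in such sums.

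On 10×, where a UMI counts 1 transcript whatever its length, UMIs were first pooled over days. The deeper E14.5 library weighs most in LP-like, DF-like, EM-like, LM-like and PE-like cells. In N-like cells E12.5 weighs most (1479314 UMIs against 269231 at E14.5), as it does in NP-like cells (331697 against 90350). The genes with the highest level in LP-like cells were the secreted inhibitors *Sfrp2* at 462.2 CPM (95% exact Poisson interval 435.9 to 489.6), *Sfrp1* at 156.7 CPM (lower limit 141.6) and the ligand carrier *Wls* at 61.6 CPM (52.2 to 72.1). In EP-like cells the order was *Sfrp1* at 183.2 CPM, *Sfrp2* at 171.7 CPM and the receptor *Fzd2* at 115.7 CPM, and the interval of *Sfrp2* (137.9 to 211.2) held the level of *Sfrp1*. DF-like cells were led by *Sfrp2* at 135.5 CPM, *Wls* at 96.99 CPM and the ligand *Wnt4* at 96.3 CPM, of which *Wls* and *Wnt4* did not differ beyond counting error. At E16.5 alone the order was *Rspo3* at 95.8 CPM, *Ryk* at 93.6 CPM and *Sfrp2* at 91.5 CPM, with overlapping intervals. In EM-like cells the receptors *Ryk* at 45.1 CPM, *Fzd3* at 30.1 CPM and *Fzd4* at 27.3 CPM came first, but *Sfrp2* and *Wls*, both at 26.1 CPM, lay within the counting error of *Fzd4* (21.2 to 34.5). These intervals cover counting error only.

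The remaining classes had other leading members. In LM-like cells the highest were *Ryk* at 27.3 CPM, *Wls* at 22.4 CPM and *Fzd7* at 19.9 CPM. N-like cells were led by *Fzd3*, a receptor needed for axon growth and guidance, at 157.4 CPM, followed by *Ryk* at 78.1 CPM and *Wnt4* at 66.7 CPM, the last of which was at 78.4 CPM at E12.5 but at 3.71 CPM at E14.5. NP-like cells held *Wnt4* at 149.4 CPM, *Fzd3* at 126.1 CPM and the ligand *Wnt7b* at 119.1 CPM. BA-like cells were led by the co-receptor *Lrp6* at 46.4 CPM, *Wls* at 44.5 CPM, and *Fzd4* and *Ryk*, both at 32.9 CPM. PE-like cells were few, and their leading values, *Wls* at 66.4 CPM, *Ryk* at 54.3 CPM and *Fzd1* at 18.1 CPM, rested on 11, 9 and 3 UMIs.

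Summed by role, LP-like cells held 710 CPM of secreted inhibitors (10×, all days) against 105.5 CPM of Wnt ligands, whereas DF-like cells held 319.9 CPM against 231.8 CPM and NP-like cells 151.8 CPM against 380.6 CPM. By day, the inhibitor sum was 766.5 CPM at E14.5 and 372.3 CPM at E16.5 in LP-like cells, and 385.1 and 178.6 CPM in DF-like cells. EM-like and LM-like cells held little of either: 35.2 CPM and 19.9 CPM of inhibitors, and 16.2 CPM and 17.4 CPM of ligands. R-spondins reached their highest sum in DF-like cells, followed by EP-like cells at 94.5 CPM and LP-like cells at 40.8 CPM, and came to 9.34 CPM or less in each of the other 6 classes. Frizzled receptors were measured in every class, from 42.2 CPM in PE-like to 329.8 CPM in EP-like cells. Of the 44 genes, the ligands *Wnt1*, *Wnt10b* and *Wnt2b*, the receptor *Fzd5* and *Rspo4* stayed under 5 CPM in every sum on both platforms. A heat map of the 44 genes over all sums shows these blocks.

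**Figure D1:**
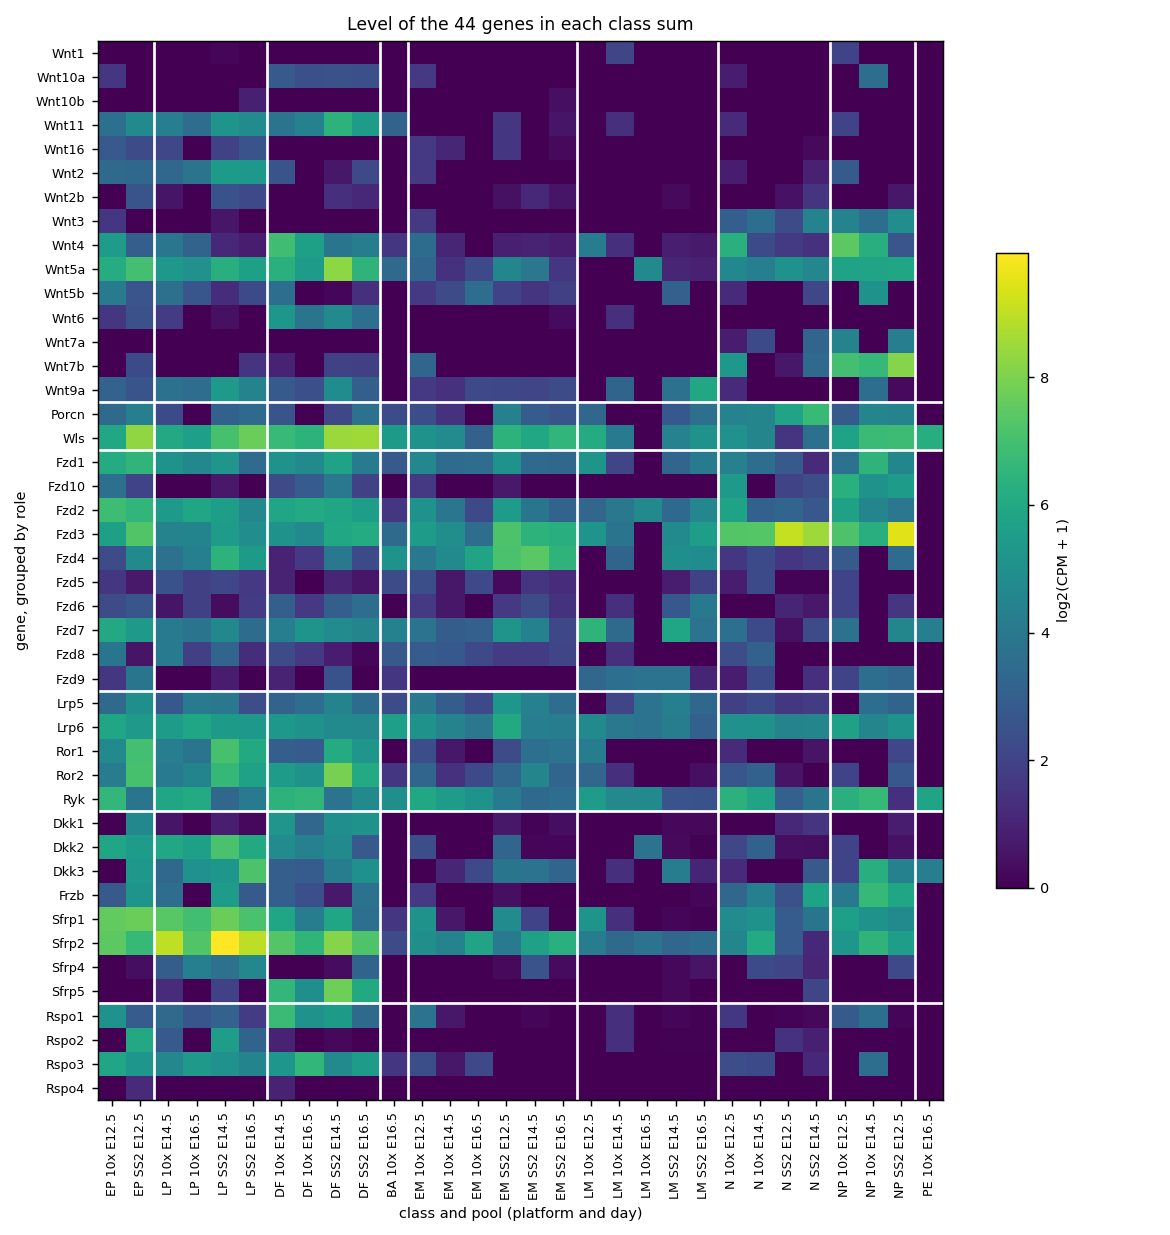
Level of each of the 44 genes (rows, grouped by role with white lines between roles) in each sum of a class in a pool (columns, grouped by class), as log2(CPM + 1) on the colour scale. *Sfrp2* is bright in the LP-like sums (990.8 CPM in ss2 E14.5) and *Fzd3* in the neural sums (727.6 CPM in NP-like ss2 E12.5), and most inhibitor and R-spondin rows are dark in the muscle and BA-like columns.

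The platforms did not give the same level for every gene. *Ryk* stood at 86.5 and 93.6 CPM in the DF-like sums on 10× and at 12.9 and 25.5 CPM on ss2, E14.5 before E16.5. Full-length reads scale with transcript length and 3′ tags do not, so levels of different genes were compared only on 10×, and every test compared groups within platforms. In the values that follow, the 4 numbers of a class stand for 10× E14.5, 10× E16.5, ss2 E14.5 and ss2 E16.5, in that order and in CPM.

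DF-like cells are the dermal class and LP-like cells the one named for the late progenitors. They differed in the amounts of several ligands, inhibitors and R-spondins, while many of these genes were measured in both. The study tested the potency of late progenitors in culture on cells sorted at E14.5, not at E16.5. Most LP-like cells of E14.5 lay in a cluster led by *Tnmd*, *Igf1* and *Angptl1*. Most of those of E16.5 lay in another, led by *Clec3b*, *Gm9780* and *Col5a3*, with *Ly6a* (Sca-1) also among its leading genes. The study reports no Sca-1 mRNA in its embryonic progenitors. The comparison is one of classes on the same days and does not follow cells from progenitor to fibroblast. The classes were compared in the 4 pools that held both (E14.5 and E16.5 on both platforms), with the pool as a block in edgeR's quasi-likelihood test. Of the 44 genes 39 passed the filter on low counts, and at an adjusted p under 0.05 (Benjamini-Hochberg over all genes) 10 were higher and 11 lower in DF-like sums. Over all 14181 genes tested, 11.7% were called, 5.25% higher and 6.41% lower. The median log2 fold change was 0.54 over these members, with *Wnt10a* at its bound, and -0.04 over all genes. Keratinocyte markers were near 0 in both classes: their 4 genes summed to between 0 and 3.33 CPM in the DF-like and to between 3.25 and 5.96 CPM in the LP-like sums, with *Krt14* and *Krt15* at 0 in 3 of the 4 DF-like sums. The 9 EM-like markers differed between the classes, at 46.9 to 150.5 CPM in DF-like and 357.1 to 2614 CPM in LP-like sums, although *Pax7* and *Myod1* were at 2.81 CPM or less in each. The 4 cartilage markers also differed, at 20.5 to 36.2 CPM in DF-like and 126.4 to 249.6 CPM in LP-like sums. The part of muscle and cartilage transcripts in these differences was not tested.

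Among the ligands, 4 rose and 2 fell. *Wnt5a*, the ligand that the study added to cultures of sorted E14.5 cells, stood at 79.4, 43.5, 302.6 and 88.1 in DF-like and at 39.05, 32.1, 76.2 and 49.3 in LP-like sums. In each of the 4 pools the DF-like sum was the higher one (log2 fold change 1.19 ± 0.25 (SE), adjusted p = 0.0111), although the values of the 2 classes overlapped across pools. With clusters drawn at resolution 0.4 its log2 fold change was 0.56 with an adjusted p of 0.11, and the call was lost.

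*Wnt4* showed a wider gap. This ligand of kidney and gonad development measured 117.6, 50.1, 13.4 and 17.2 in DF-like against 14.1, 8.04, 1.2 and 0.723 in LP-like sums (log2 fold change 3.63 ± 0.34 (SE), adjusted p = 9.2e-05). Within each platform its DF-like sums lay above both LP-like sums. *Wnt6*, a ligand better known from ectoderm, measured 37.2, 13.1, 26.1 and 11.4 against 2.35, 0, 0.346 and 0 (log2 fold change 6.46 ± 0.98 (SE), adjusted p = 0.0017), and no DF-like value reached down to an LP-like one. *Wnt10a*, a ligand of skin appendages, was at 6.03, 4.36, 4.48 and 4.33 in DF-like sums and at 0 in all 4 LP-like sums, so no fitted fold is given. On 10×, 8 UMIs against 0 made it at least 4.57-fold higher (floor of 3 counts over the group), and its adjusted p was 0.00909.

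The 2 ligands that fell were both near the limit of detection in DF-like cells. *Wnt2*, a ligand of lung and vascular mesenchyme, was at 5.03, 0, 0.57 and 3.56 in DF-like and 8.94, 13.4, 41.6 and 38.8 in LP-like sums, lower in 4 of 4 pools (log2 fold change -4.01 ± 0.81 (SE), adjusted p = 0.00965). *Wnt16* measured 0, 0, 0 and 0.0153 against 3.29, 0, 2.84 and 5.01, and was lower in 3 of 4 pools with an adjusted p of 0.00851. The other 5 ligands tested did not pass the threshold, among them *Wnt11* with 13.1, 19.6, 85.3 and 44.7 against 17.9, 10.7, 34.6 and 27.2 (adjusted p = 0.208) and *Wnt9a* with a log2 fold change of -1.06 ± 0.36 (SE) and an adjusted p of 0.0892.

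Of the secretion genes *Wls* rose, at 102.6, 84.9, 350.7 and 368.7 in DF-like against 63.99, 48.2, 130.6 and 206.8 in LP-like sums (log2 fold change 0.97 ± 0.18 (SE), adjusted p = 0.00531), and *Porcn* did not pass the threshold. Of the 10 Frizzled genes 3 were called. *Fzd4*, which also binds the non-Wnt ligand norrin in blood vessels, was lower in DF-like cells in every pool, with 1.005, 2.18, 14.8 and 3.75 against 12.2, 18.8, 86.05 and 41.6 (log2 fold change -3.04 ± 0.35 (SE), adjusted p = 0.000295), and within each platform the classes did not overlap. *Fzd8* fell by 2.83 ± 0.76 (SE) on the log2 scale from low levels, and its call was lost without the 10× E14.5 pool (adjusted p = 0.219). *Fzd10* rose, with 4.02, 6.53, 14.8 and 2.75 in DF-like against 0, 0, 0.606 and 0 in LP-like sums. The other 7 Frizzled genes did not pass, and their log2 fold changes ran from -2.08 ± 0.96 (SE) for *Fzd5*, lower in DF-like sums in 4 of 4 pools, to 3.10 ± 0.92 (SE) for *Fzd6*, higher in 3 of 4 (adjusted p = 0.215 and 0.0536).

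The *Wnt5a* receptors *Ror1* and *Ror2* moved in opposite directions. *Ror2* measured 44.2, 32.7, 243.02 and 67.1 in DF-like against 15.5, 21.4, 97.6 and 50.4 in LP-like sums and rose by 0.98 ± 0.23 (SE) on the log2 scale. *Ror1* measured 7.04, 6.53, 68.7 and 35.3 against 18.4, 13.4, 133.8 and 64.4 and fell by 0.99 ± 0.23 (SE), lower in DF-like cells in 4 of 4 pools. Their adjusted p values of 0.0192 and 0.0172 rose to between 0.0512 and 0.0874 when the 10× E14.5 pool (both), or the 10× E16.5 or ss2 E14.5 pool (*Ror2*), was left out. *Ryk*, *Lrp5* and *Lrp6* did not pass the threshold.

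Secreted inhibitors held the largest share of called members, 7 of the 8 tested. *Sfrp5* had the smallest p of the members, with 96.5, 30.5, 217.9 and 64.9 in DF-like against 1.41, 0, 2.91 and 0.0815 in LP-like sums (log2 fold change 7.26 ± 0.58 (SE), adjusted p = 2.91e-05). On 10×, 110 against 3 UMIs gave a ratio of 62.8 (lower limit of the 95% conditional exact interval 20.9). Its relatives went the other way. *Sfrp2* measured 155.9, 91.5, 278.8 and 146.97 in DF-like and 513.3, 152.7, 990.8 and 494.4 in LP-like sums (log2 fold change -1.60 ± 0.18 (SE), adjusted p = 0.000236), and *Sfrp1* 56.3, 17.4, 56.1 and 11.4 against 163.3, 120.5, 207.4 and 134.5 (log2 fold change -2.43 ± 0.31 (SE), adjusted p = 0.000596). For both, every DF-like value lay below the LP-like value of its pool. *Sfrp4* also fell, from 6.59, 18.8, 12.52 and 23.7 in LP-like to 0, 0, 0.241 and 8.15 in DF-like sums, with adjusted p values of 0.0639 and 0.0801 when either 10× pool was left out.

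The Dkk genes also split. *Dkk1*, a strong inhibitor of *Lrp6* and itself a known target of beta-catenin, was at 35.2, 8.71, 30.2 and 33.6 in DF-like and at 0.47, 0, 0.804 and 0.156 in LP-like sums (log2 fold change 6.40 ± 0.62 (SE), adjusted p = 0.000108). *Dkk2* was at 27.1, 19.6, 25.7 and 5.85 against 61.2, 48.2, 136.5 and 65.2 (log2 fold change -2.33 ± 0.36 (SE), adjusted p = 0.00195). *Dkk3*, a relative that does not act on *Lrp6* as the others do, was at 7.04, 6.53, 17.4 and 30.8 against 9.41, 32.1, 36.6 and 142.3 and fell by 1.52 ± 0.32 (SE) on the log2 scale, with an adjusted p of 0.0108 that became 0.102 without the ss2 E16.5 pool. *Frzb*, the eighth inhibitor, did not pass.

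R-spondins followed the division too. *Rspo1* measured 108.6, 32.7, 42.5 and 9.9 in DF-like and 9.88, 5.36, 7.86 and 2.45 in LP-like sums (log2 fold change 2.56 ± 0.29 (SE), adjusted p = 0.000273), whereas *Rspo2* measured 1.005, 0, 0.158 and 0 against 6.12, 0, 45.4 and 8.22, lower in 3 of 4 pools with an adjusted p of 0.00232 (0.0815 with DESeq2). *Rspo3* was present in both classes, at 36.2, 95.8, 26.2 and 43.2 and 23.5, 40.2, 31.9 and 21.6, and did not pass (adjusted p = 0.213). The plot of 10 of these genes by pool shows each pair of sums.

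**Figure D2:**
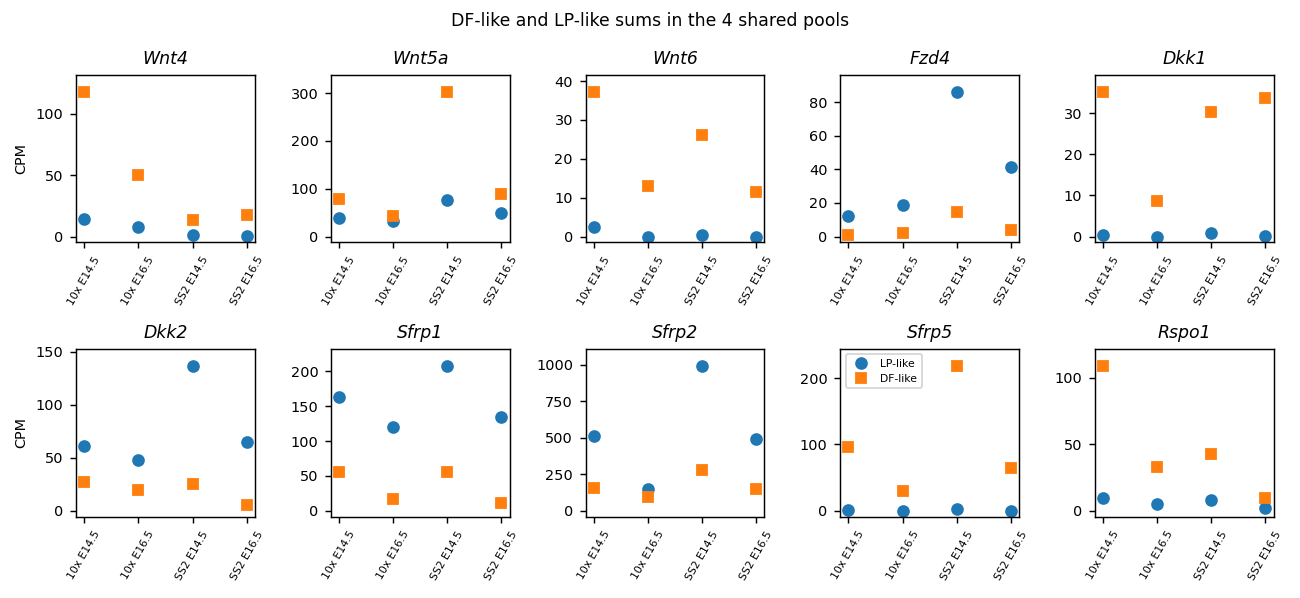
CPM (vertical axis, linear) of 10 genes in the DF-like (orange squares) and LP-like (blue circles) sums of the 4 shared pools (horizontal axis). The orange squares lie above the blue circles in every pool for *Wnt4*, *Wnt5a*, *Wnt6*, *Dkk1*, *Sfrp5* and *Rspo1*, and below them for *Fzd4*, *Dkk2*, *Sfrp1* and *Sfrp2*.

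Because *Sfrp5* and the inhibitors *Sfrp2* and *Dkk2* lay on opposite sides of this comparison, the 250 bases before the RefSeq start of each are shown (GRCm38.p6, 5′ to 3′ on the gene's strand). Capitals mark TATAAA, the TATA-box core, or CTTTGA, the core bound by Tcf/Lef factors, on either strand (reverse complements TTTATA and TCAAAG). Each window ends at the base before the gene, so none holds an exon of it: *Sfrp5* lies at chr19:42197971-42202252 (minus strand) and its window at chr19:42202253-42202502, *Sfrp2* at chr3:83766321-83774316 (plus strand) with its window at chr3:83766071-83766320, and *Dkk2* at chr3:132085292-132180304 (plus strand) with its window at chr3:132085042-132085291.
Sfrp5: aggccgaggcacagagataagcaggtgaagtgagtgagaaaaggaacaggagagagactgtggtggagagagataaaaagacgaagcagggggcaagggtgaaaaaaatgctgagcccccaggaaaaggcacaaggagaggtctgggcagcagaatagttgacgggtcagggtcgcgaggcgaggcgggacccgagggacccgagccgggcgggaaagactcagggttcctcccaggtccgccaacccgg
Sfrp2: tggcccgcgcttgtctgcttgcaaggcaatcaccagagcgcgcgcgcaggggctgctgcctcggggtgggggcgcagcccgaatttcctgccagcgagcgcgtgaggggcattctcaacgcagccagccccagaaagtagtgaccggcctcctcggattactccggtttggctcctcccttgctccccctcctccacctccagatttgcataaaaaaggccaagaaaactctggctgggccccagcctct
Dkk2: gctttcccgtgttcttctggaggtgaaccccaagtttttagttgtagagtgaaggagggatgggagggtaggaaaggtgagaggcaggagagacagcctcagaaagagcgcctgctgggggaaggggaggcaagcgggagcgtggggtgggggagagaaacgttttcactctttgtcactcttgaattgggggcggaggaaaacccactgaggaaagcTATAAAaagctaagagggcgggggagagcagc
*Dkk2* alone of the 3 held a match, to TATAAA. Windows were found for 30 members (33 windows), of which 6, those of *Dkk1*, *Frzb*, *Fzd1*, *Ror1*, *Wnt11* and *Wnt5b*, held CTTTGA on either strand, or 18.2% against 13.8% of all 32851 windows. TATAAA was found in 5 member windows (15.2% against 12.4% of all). The median GC content was 66.8% in member windows and 52.4% in all. These are matches of letters in short windows, with no measure of binding.

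Other genes of the pathway, taken from 3 lists in full, were called beside the members. Of 24 genes of the beta-catenin pathway and its targets 7 were higher and 2 lower in DF-like sums, of 16 other membrane and secreted modulators 6 higher and 3 lower, and of 15 planar polarity and non-canonical genes 1 higher and 1 lower. Their median log2 fold changes were 0.06, 0.04 and 0.14. The largest called increases were those of *Sp5*, *Notum* and *Lef1*. *Lef1*, a factor through which beta-catenin acts, was at 105.3, 75.5, 185.2 and 169.5 in DF-like and 1.97, 2.81, 1.28 and 0.681 in LP-like sums (log2 fold change 7.33 ± 0.38 (SE), adjusted p = 2.27e-06). *Notum*, an enzyme that removes the lipid from Wnt proteins, and *Sp5*, a target of the pathway, were at 0 in all LP-like sums, and on 10× stood at least 14.8-fold and at least 7.42-fold higher in DF-like cells. *Tle1*, *Gpc6* and *Lgr4*, a receptor for R-spondins, fell by 1.49 ± 0.33, 1.42 ± 0.19 and 1.35 ± 0.34 (SE) on the log2 scale.

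EM-like cells, the Pax7+ muscle progenitors, held lower levels of most secreted members than LP-like cells. In the same 4 pools 34 members passed the filter, and 20 were lower and 2 higher in EM-like than in LP-like sums. Over all 14054 genes 33.8% were called, 18.9% lower and 14.9% higher. The median log2 fold change was -0.16 over all genes and -2.48 over 33 of these members. For the latter *Frzb* and *Wnt2*, at 0 in every EM-like sum, were set to their bound. *Sfrp5*, also at 0 there but without a bound, was left out. By role, 7 of 8 inhibitors, 3 of 3 R-spondins, 4 of 8 ligands, 3 of 5 co-receptors and other receptors and *Wls* were lower, and none of these was higher, while 2 Frizzled genes were lower and 2 higher. *Myod1*, the muscle determination factor, stood between 201.1 and 602.2 CPM in these EM-like sums and between 0 and 2.81 CPM in the LP-like sums.

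The inhibitors were at several levels in muscle progenitors. *Sfrp1* was at 0.561, 0, 3.03 and 0.0398 in EM-like sums, and on 10× the ratio was 0.00302 (interval 7.6e-05 to 0.0169), from 1 UMI in EM-like cells. *Dkk2* was at 0, 0, 0.0901 and 0.0994 and on 10× at least 41.7-fold lower, with no UMI in EM-like cells. *Sfrp2* was at 20.8, 54.6, 50.9 and 79.3 in EM-like sums and fell by 3.47 ± 0.39 (SE) on the log2 scale. *Frzb* and *Wnt2* were at 0 in all 4 EM-like sums and on 10× at least 6.49-fold and at least 6.77-fold lower, from 23 and 24 UMIs in LP-like cells. *Sfrp5* was at 0 as well, but LP-like cells held only 3 UMIs.

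*Rspo3* was at 0.561, 3.64, 0 and 0 and *Rspo2* at 0, 0, 0.018 and 0 in EM-like sums, with adjusted p values of 0.000139 and 4.2e-05. Of the ligands *Wnt5a*, *Wnt9a*, *Wnt11* and *Wnt2* fell. *Wnt5a* measured 1.68, 3.64, 14.53 and 1.99 in EM-like sums and was lower in 4 of 4 pools (log2 fold change -3.64 ± 0.47 (SE), adjusted p = 0.000226). *Ror1* fell by 3.17 ± 0.37 and *Ror2* by 2.48 ± 0.30 (SE) on the log2 scale, both lower in every pool. The calls of *Sfrp4* and *Fzd1* were lost without either 10× pool, that of *Fzd1* also without ss2 E14.5 (adjusted p between 0.058 and 0.155).

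A pair of receptors was higher in muscle progenitors. *Fzd4* measured 26.4, 54.6, 170.7 and 88.2 in EM-like against 12.2, 18.8, 86.05 and 41.6 in LP-like sums, higher in 4 of 4 pools (log2 fold change 1.11 ± 0.20 (SE), adjusted p = 0.00168). *Fzd3* was higher in 3 of 4 pools (log2 fold change 0.85 ± 0.29 (SE), adjusted p = 0.0443), and its call was lost without the 10× E14.5 pool (adjusted p = 0.115), without the ss2 E16.5 pool (0.0792) or at resolution 0.4 (0.058). Of the other pathway genes, *Draxin*, *Tnfrsf19* and *Kremen1* were higher by 4.80 ± 1.05, 3.27 ± 0.41 and 1.32 ± 0.24 (SE) on the log2 scale, and *Sostdc1*, *Wif1* and *Nkd2* were lower. The plot of fold changes sets this comparison beside the one of DF-like and LP-like cells, which share their LP-like sums.

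**Figure D3:**
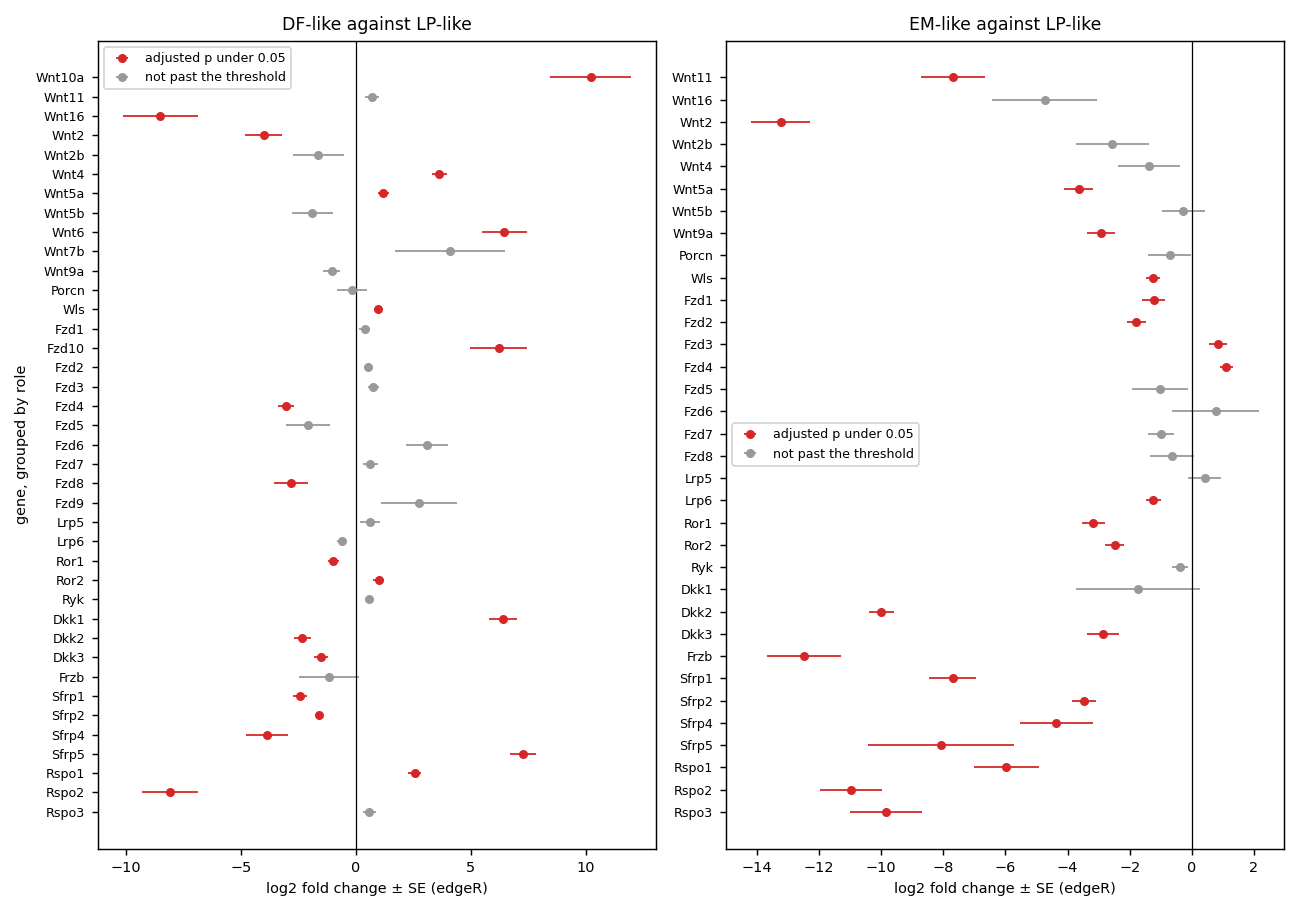
Log2 fold change with SE (horizontal axis) of each member tested, grouped by role (vertical axis), for DF-like against LP-like sums (left) and EM-like against LP-like sums (right), each over 4 pools. Red points passed an adjusted p of 0.05 and lie on both sides of 0 on the left, while on the right the red points above 0 are *Fzd3* and *Fzd4*. Points beyond 8 on either side rest on groups at or near 0 counts.

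LM-like cells, which express *Myog* and sarcomere genes, were compared with EM-like cells in 5 pools, where 19 members passed the filter, 3 were higher and 3 lower (31.6% called), against 23.9% called of all 10170 genes. The median log2 fold change was -0.71 over these members and 0.05 over all genes. *Fzd9* was at 0 in every EM-like sum and at 8.71, 11.4, 12.99, 12.9 and 1.07 in the LM-like sums (10× E12.5, E14.5 and E16.5, then ss2 E14.5 and E16.5), on 10× at least 9.49-fold higher with 9 against 0 UMIs (adjusted p = 0.000125). *Fzd4* and *Sfrp2* fell in 5 of 5 pools, by 1.88 ± 0.36 and 2.02 ± 0.40 (SE) on the log2 scale.

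The other 3 calls were less even across pools. *Fzd7* was higher in 4 of 5 pools (log2 fold change 1.79 ± 0.49 (SE), adjusted p = 0.00677), and its adjusted p was 0.0859 without the 10× E12.5 pool. *Wnt9a* was higher in 3 of 5, with 0, 8.16, 0, 12.2 and 60.6 in LM-like sums. *Ror1* was lower in 3 of 5 and not called by DESeq2 (adjusted p = 0.525). Without the ss2 E14.5 pool 9 members passed the filter and 2 were called. *Wnt5a* did not pass (adjusted p = 0.387). Of the other pathway genes *Kremen2*, a co-receptor for Dkk proteins, rose by 4.28 ± 0.48 and *Lef1* by 2.37 ± 0.73, and the heparan sulfate carrier *Gpc3* fell by 2.45 ± 0.23 (SE) on the log2 scale.

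In EM-like cells 4 members that were high in mesenchyme were lower on the last day than on the first. EM-like sums at E16.5 were compared with those at E12.5 in 1 fit over the EM-like, LP-like, DF-like and N-like sums with a term for platform within class. Of 41 members tested, 4 were lower at E16.5 and none higher, against 6.50% called of all 14472 genes (3.39% lower, 3.10% higher). *Sfrp1* stood at 33.9, 0.561, 0, 26.8, 3.03 and 0.0398 CPM in the 10× sums of the 3 days in order, then in the ss2 sums (log2 fold change -9.16 ± 0.93 (SE), adjusted p = 5.55e-06). In the same order *Dkk2* stood at 4.24, 0, 0, 8.52, 0.0901 and 0.0994 CPM (log2 fold change -6.01 ± 0.91 (SE), adjusted p = 0.000224). Both were at their highest at E12.5 on both platforms and at 3.03 CPM or less on the later days.

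*Wnt5a* stood at 8.49, 1.68, 3.64, 22.8, 14.53 and 1.99 CPM in the same EM-like sums (log2 fold change -3.09 ± 0.67 (SE), adjusted p = 0.00599), and *Fzd2* at 33.9, 14.02, 3.64, 43.03, 13.4 and 7.92 CPM (log2 fold change -2.10 ± 0.60 (SE), adjusted p = 0.0361). On 10× the Poisson intervals of *Wnt5a* overlapped between days. Without the ss2 E16.5 sum none of the 4 was called, without the ss2 E12.5 sum only *Sfrp1* was, and *Fzd2* lost its call without either 10× sum (adjusted p = 0.0552 and 0.0927). *Sfrp2* went the other way, at 29.7, 20.8, 54.6, 15.7, 50.9 and 79.3 CPM, and did not pass (adjusted p = 0.0674). Markers of EP-like cells moved with the 4 genes: in EM-like sums their 10 genes summed to 189.1 CPM at E12.5 and 55.9 CPM at E16.5 on 10×, and to 164.5 and 87.2 CPM on ss2. *Pdgfra*, which marks the mesenchyme, stood at 42.6 and 0.0612 CPM on these days on ss2 but at 6.52 and 7.45 CPM on 10×, and the 10 markers of LP-like cells rose, from 364.1 to 2278 CPM on ss2. The 3 Schwann and neural crest glia markers went from 93.5 to 11.2 CPM on 10× and from 282.3 to 18.4 CPM on ss2. Most EM-like cells of E12.5 lay in 1 cluster, which on 10× was led by the liver genes *Afp* and *Alb*. *Alb* stood at 58.7 CPM in the 10× E12.5 sum and at 0 in the 10× E16.5 sum, but at 0 in both ss2 sums of these days. The part of these marker and liver transcripts in the differences between days was not tested. Among the other pathway genes *Dact1* and the feedback genes *Axin2* and *Nkd2* fell, and *Nfatc1* rose.

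**Figure D4:**
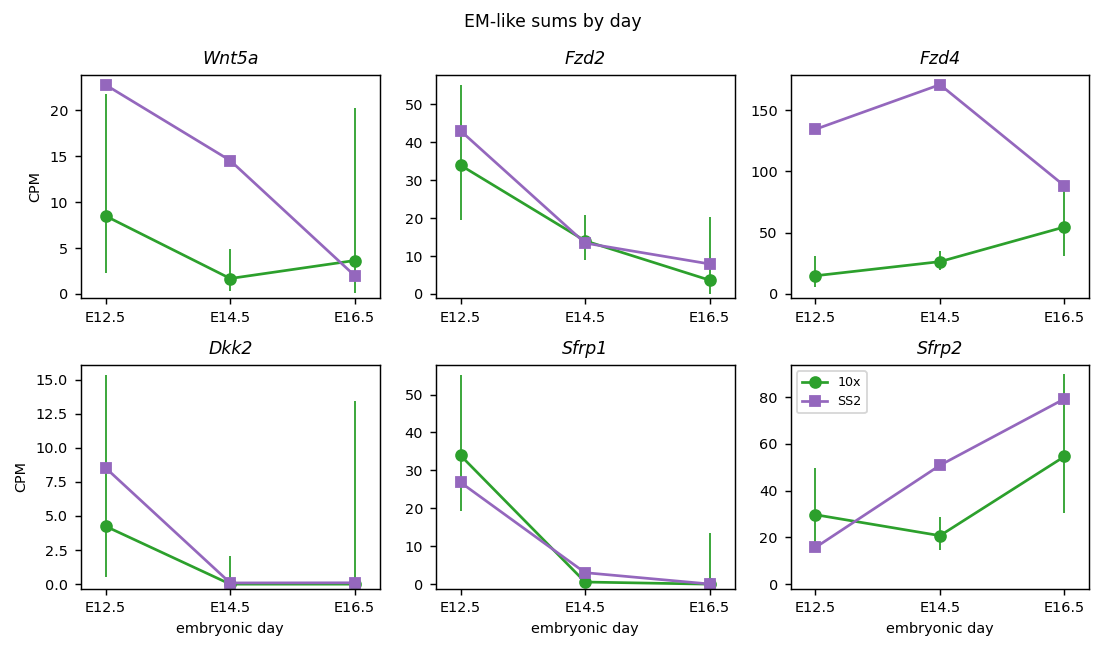
CPM (vertical axis, linear) of 6 genes in EM-like sums of each day (horizontal axis) on 10× (green circles, with 95% Poisson intervals as bars) and ss2 (purple squares). *Sfrp1*, *Dkk2* and *Fzd2* are highest at E12.5 on both platforms, *Sfrp2* is highest at E16.5 on both, and *Fzd4* rises with day on 10× but not on ss2.

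LP-like and DF-like cells were compared between E14.5 and E16.5, although each class was held mostly by different clusters on the 2 days: 85.8% of LP-like cells of E14.5 lay in 1 cluster and 77.02% of those of E16.5 in another, and for DF-like cells these shares were 73.8% and 75.4%. Of 41 members tested in the same fit, 1 was called in LP-like sums (0.442% of all genes, 0.221% in each direction): *Sfrp5* fell from 1.41 to 0 CPM on 10× and from 2.91 to 0.0815 CPM on ss2 (adjusted p = 0.0190), low levels throughout, and its call was lost with DESeq2 or without either ss2 sum (adjusted p = 1.00 in each). In DF-like sums edgeR called none (0.947% of all genes, 0.318% higher and 0.629% lower). An unadjusted p under 0.05 was reached by 9 of 41, and DESeq2 called 1. Shares of all genes for the unadjusted p and for DESeq2 are not given here. Those counts are therefore not read as an effect of day. *Wnt5a* was lower at E16.5 in DF-like sums on both platforms, with an adjusted p of 0.435, and *Sfrp1* had a log2 fold change of -1.79 ± 0.49 (SE) and an adjusted p of 0.0901.

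LP-like cells were also set against EP-like cells, the progenitors of E12.5. The classes shared no pool, so day and class cannot be told apart, and 2 EP-like sums were compared with 4 LP-like sums with a term for platform. Of 39 members tested 2 were called, both higher in LP-like sums, against 5.73% called of all 14049 genes (4.84% higher, 0.89% lower), with a median log2 fold change of -0.12 over the members and 0.11 over all genes. *Sfrp2* was at 172.5 and 100.5 CPM in EP-like sums (10×, then ss2) and at 513.3, 152.7, 990.8 and 494.4 in LP-like sums (log2 fold change 2.25 ± 0.58 (SE), adjusted p = 0.0395). *Sfrp4* was at 0 and 0.283 CPM in EP-like and at 6.59, 18.8, 12.52 and 23.7 in LP-like sums (adjusted p = 0.00546). Without the ss2 EP-like sum neither was called (adjusted p = 0.984 and 0.748), and DESeq2 called 7 members. The share of all genes that DESeq2 called is not given here.

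Several members that did not pass were higher in EP-like cells on both platforms. *Wnt4* had 43.1 and 7.03 CPM in EP-like sums (log2 fold change -2.06 ± 0.57 (SE), adjusted p = 0.0552), and *Fzd1*, *Fzd2*, *Fzd3* and *Fzd7* had log2 fold changes between -1.33 and -0.97. Others that did not pass were higher in LP-like cells on both platforms, with log2 fold changes of 1.79 ± 0.51 for *Fzd4*, 2.28 ± 0.68 for *Wnt9a* and 2.16 ± 1.22 (SE) for *Fzd5* (adjusted p = 0.0587, 0.0718 and 0.360). *Wnt5a* was at 70.6 and 123.7 CPM in EP-like sums and did not pass (log2 fold change -0.58 ± 0.34 (SE), adjusted p = 0.389). The feedback gene *Axin2* and *Lef1* fell by 3.86 ± 0.61 and 6.78 ± 0.62 (SE) on the log2 scale from EP-like to LP-like sums. On 10× the EP-like sum held 1062 CPM of the 9 DF-like markers and 822.3 CPM of its own 10. The LP-like sums held 836.4 and 646.1 CPM of the DF-like markers (E14.5, then E16.5). Cartilage markers stood at 303.5 CPM in the EP-like and at 131.1 and 126.4 CPM in the LP-like sums. The part of dermal and cartilage transcripts in these differences was not tested.

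Neurons of the lineage were compared with EM-like cells of the same pools (E12.5 and E14.5 on both platforms). Of 37 members tested 3 were higher and 2 lower in N-like sums, against 29.5% called of all 13518 genes. The median log2 fold change was -0.27 over these 37 members and 0.02 over all genes. It was -0.50 over the 35 members left without *Fzd9* and *Wnt7a*, which were at 0 in every sum of 1 class and had no bound. *Fzd3* was at 157.5, 159.7, 542.5 and 356.5 CPM in N-like sums (10× E12.5 and E14.5, then ss2 E12.5 and E14.5), higher in 4 of 4 pools (log2 fold change 1.78 ± 0.19 (SE), adjusted p = 0.00246). *Porcn* was at 20.3, 22.3, 54.9 and 102.6 CPM and higher in 4 of 4 pools (log2 fold change 2.58 ± 0.55 (SE), adjusted p = 0.0164), and *Wnt3* was at 6.76, 11.1, 4.02 and 21.8 CPM with 1 count in the EM-like sums of all 4 pools. Both lost their call without either E14.5 pool, and *Wnt3* also without ss2 E12.5. *Fzd4* fell by 5.57 ± 0.69 and *Lrp5* by 3.21 ± 0.66 (SE) on the log2 scale, *Lrp5* with an adjusted p of 0.0506 without ss2 E12.5. *Wnt5a* was higher in 4 of 4 pools and did not pass (adjusted p = 0.171).

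*Wnt4* and *Wnt7b* were unevenly spread over the neural sums. *Wnt4* was at 78.4, 3.71, 2.25 and 1.69 CPM in N-like sums and *Wnt7b* at 38.5, 0, 0.572 and 9.55 CPM, and neither passed (adjusted p = 0.103 and 0.0956). In NP-like sums *Wnt7b* measured 126.6, 99.6 and 280.5 CPM (10× E12.5, 10× E14.5 and ss2 E12.5) and *Fzd3* measured 141.7, 77.5 and 727.6 CPM. The number of members called was 15 with DESeq2, 16 at resolution 0.4, where 1 cluster of 751 cells, named NP-like, took up most cells that were N-like at E12.5, and 9 with all deposited cells kept. Shares of all genes called in these runs are not given here. Of other pathway genes, *Draxin* and the planar polarity receptors *Celsr2* and *Celsr3* were higher, and *Gpc3*, *Kremen2* and *Tcf7l1* lower.

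BA-like cells were found in numbers in 1 pool only, 10× E16.5, so their UMIs are given as ratios to those of LP-like cells in that pool, with exact intervals that cover counting error and no test over pools. Of 14 members with at least 10 UMIs in both classes together, 9 had an interval below 1 and none above 1, where 23.5% of the 6913 genes at that depth lay below 1 and 42.6% on either side. *Sfrp1* had 1 UMI in BA-like against 45 in LP-like cells (ratio 0.016, interval 0.000396 to 0.0938), and *Sfrp2* 2 against 57 (0.0253, 0.00299 to 0.0955). *Dkk2* had 0 against 18 UMIs and *Rspo3* 1 against 15 (ratio 0.048, interval 0.00114 to 0.312). *Wnt5a* had 5 against 12 UMIs, a ratio of 0.30 (0.0828 to 0.915), and *Fzd2* 1 against 22, a ratio of 0.0327 (0.000793 to 0.202).

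For 5 members, the carrier *Wls* and the receptors *Lrp6*, *Fzd3*, *Fzd4* and *Fzd7*, the interval included 1. The ratio was 0.84 (0.426 to 1.67) for *Wls*, 0.785 (0.422 to 1.47) for *Lrp6*, 1.75 (0.689 to 4.99) for *Fzd4* and 1.44 (0.448 to 5.37) for *Fzd7*. The 2 bulk libraries of sorted Pdgfra-/Cd36+ cells of E16.5, technical duplicates of cells from several pooled embryos, gave the highest read counts of the group to *Wls* at 101.3 and 97.8 CPM, *Lrp6* at 85.7 and 96.6 CPM and *Fzd4* at 79.8 and 95.1 CPM. In those libraries *Sfrp1* stood at 1.65 and 2.06 CPM, *Sfrp2* at 3.58 and 3.67 CPM and *Wnt5a* at 13.8 and 17.5 CPM. Read counts in bulk depend on transcript length, so that order is not one per transcript.

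**Figure D5:**
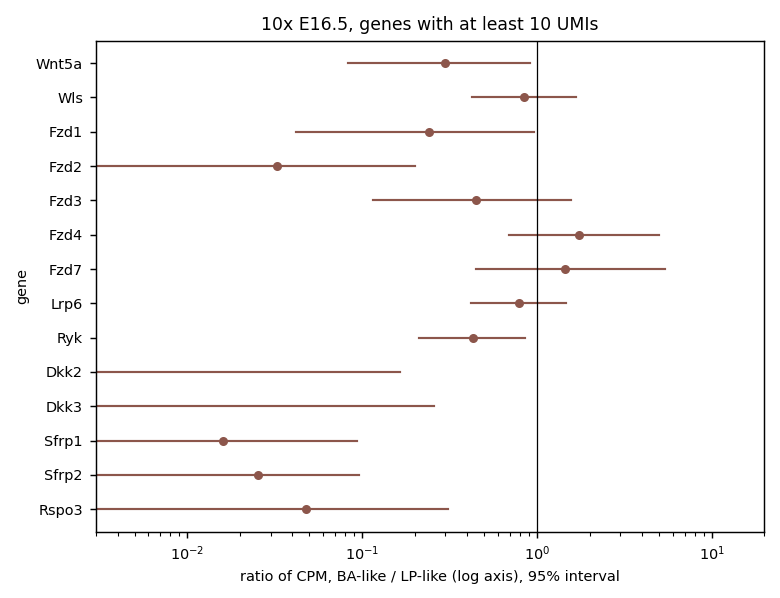
Ratio of CPM in BA-like to LP-like cells of the 10× E16.5 pool (horizontal axis, logarithmic) for the 14 members with at least 10 UMIs, with 95% conditional exact intervals as lines and the ratio as a point, where BA-like cells had a UMI. The intervals of *Wls*, *Fzd3*, *Fzd4*, *Fzd7* and *Lrp6* include 1 (vertical line), and those of the 4 inhibitors and *Rspo3* end at 0.312 or lower. Lines that reach the left edge go on beyond it.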

How the data were processed

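Single YFP+ cells of 3 embryonic days were profiled on 10× and ss2. For 10×, the authors used Cell Ranger and deposited raw UMI counts for 2934 cells. For ss2, the authors used kallisto 0.44.0 and tximport, and deposited expected counts (estimated, not whole) for 982 cells, which were rounded after summing. The deposited bulk table holds read counts, and its aligner is not given in the sources used here. Of its 18 columns, 16 had names that match 2 samples and were not used, so the sorted and cultured bulk comparisons were not made. The other 2 held 24.86 and 32.95 times 1000000 reads.

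Cells with up to 8% mitochondrial counts, a YFP count above 0, at least 4000 genes on ss2 and up to 15000 UMIs on 10× were kept (2921 and 931 cells). Scrublet called 23 doublets, which were kept, and 6 cells shared a barcode with a cell of another library. Cells were integrated across platforms by canonical correlation analysis in Seurat 5.3.0 (2000 variable genes without members or pathway genes, 30 components) and clustered at resolution 0.8. A cluster was named for the class whose markers had the highest mean z-score, if this was at least 0.8 and at least 3 of its markers were each detected in at least 5% of cells. A cluster with at least 3 markers of another cell type among its top 10 genes stayed unnamed, and 20 cells were in unnamed clusters.

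Counts of each class in each pool with at least 20 cells were summed. Levels of members are CPM of all counts, whereas the tests, the ratios and the levels of other pathway genes and of markers used the 15147 genes on both platforms. Sums were tested with edgeR 4.0.16 in R 4.3.3 (quasi-likelihood test, TMM, filterByExpr) with Benjamini-Hochberg adjustment over all genes tested and a threshold of 0.05, with the pool as a block between classes that shared pools. Interactions of class and day were fitted in edgeR on the same 4 pools. The SE given with a log2 fold change is its absolute size divided by the square root of the quasi-likelihood F statistic. The scripts were tested on simulated data, where comparisons of sums made more false calls than the nominal rate, so calls near the threshold are less firm. DESeq2 1.42.0 gave an alternative, beside no filter on low counts, resolutions 0.4 and 1.2, members allowed in the clustering, all deposited cells, doublets removed and each sum left out. Fits on each platform alone were chosen after seeing the data. Intervals (95%, exact Poisson for a level, conditional exact for a ratio) and floors of 3 counts cover counting error only. Values were computed in Python 3.11.15. Promoters are RefSeq sequences of GRCm38.p6, and the submitters' processing notes name mm10.

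Members and lists were chosen with earlier results of these data known. Named are all called members of a comparison up to 20 by size of change, *Wnt5a*, the 3 highest members of each class on 10× and the 3 largest called changes each way among other pathway genes. Members named beyond these were chosen after their values were seen.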

Additional observations from a re-analysis of the deposited data

Results flagged for a closer look

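The difference between DF-like and LP-like cells was not the same on both days for 5 of the 39 members tested, against 3.58% of 14181 genes, by the interaction of class and day in edgeR's quasi-likelihood test (difference of log2 fold changes, E16.5 less E14.5). It was 6.29 ± 1.89 (SE) for *Wnt6* (adjusted p = 0.0293), whose LP-like sums at E16.5 were at 0, so that the size depends on the fit. It was 5.59 ± 1.03 for *Frzb* (adjusted p = 1.19e-05), 3.72 ± 1.13 for *Sfrp4* (adjusted p = 0.0320), 3.34 ± 0.68 for *Sfrp5* (adjusted p = 0.000114) and -1.65 ± 0.35 for *Sfrp1* (adjusted p = 0.000339). *Frzb* stood at 7.04, 4.36, 0.618 and 12.3 CPM in DF-like and 10.8, 0, 44.8 and 5.98 CPM in LP-like sums (10× E14.5, 10× E16.5, ss2 E14.5, ss2 E16.5). For *Sfrp5*, *Sfrp4* and *Wnt6* the values are given by platform, as pool-wise log2 ratios with 0.5 added to each count. The pool-wise log2 ratio of *Sfrp5* went from 5.87 to 4.56 on 10× and from 6.22 to 9.53 on ss2, that of *Sfrp4* from -3.77 to -4.20 and from -5.68 to -1.53, and that of *Wnt6* from 3.85 to 3.40 and from 6.20 to 10.72. For each of these 3 genes 1 class had 0 UMIs at E16.5 on 10×, so the sizes depend on the fit. There the 10× ratio depends on the depth of the sums and on the added 0.5. It thus cannot show whether the platforms differed. Each class lay mostly in different clusters on the 2 days, as given above.

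Between EM-like and LP-like cells the same held for 5 of 34 members, against 2.56% of 14054 genes. The differences were -5.45 ± 0.82 (SE) for *Sfrp1* (adjusted p = 1.63e-08), 1.92 ± 0.39 for *Sfrp2* (adjusted p = 0.000164), -5.01 ± 1.19 for *Sfrp4* (adjusted p = 0.00242), 6.95 ± 1.75 for *Wnt11* (adjusted p = 0.00558) and -2.43 ± 0.62 for *Dkk3* (adjusted p = 0.00726). *Wnt11* stood at 0, 0, 0 and 0.497 CPM and *Sfrp4* at 0, 0, 5.01 and 0.224 CPM in EM-like sums, so the size for *Wnt11*, at 0 in both E14.5 sums, depends on the fit. For 3 of the 5 the log2 ratios, with 0.5 added to each count, moved differently by platform. That of *Sfrp1* went from -7.64 to -6.10 on 10× and from -6.10 to -11.40 on ss2. That of *Sfrp4* went from -4.64 to -3.50 and from -1.32 to -6.69, and that of *Dkk3* from -2.82 to -2.65 and from -1.52 to -4.07. On 10× EM-like cells had 0 UMIs of *Sfrp4* on both days and of *Sfrp1* at E16.5. For these genes 10× therefore cannot show whether the platforms differed. The counting error of the *Dkk3* ratios was not assessed. EM-like cells too lay mostly in different clusters on the 2 days (97.4% and 64.9% in 1 cluster each). These comparisons share their LP-like sums, and each difference between days rests on 2 pools a day.

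In 4 of the 54 groups of pool-wise log2 ratios looked at, 1 pool stood apart from the other 3 by its distance to the nearest one, which chance alone gives in about 1 of 20 groups. All 4 were in the 10× E16.5 pool, the one with the lowest median UMI count per cell. The DF-like to LP-like log2 ratio of *Sfrp2* was -0.73 there, against -1.83 to -1.73 in the other pools. The EM-like to LP-like log2 ratio was -2.48 for *Wls* (-1.28 to -1.07 in the others), -1.92 for *Lrp6* (-1.21 to -1.12) and -3.50 for *Fzd2* (-1.78 to -1.53). For these 4 genes the direction was the same in all 4 pools. The EM-like sum of the 10× E16.5 pool held 274573 UMIs, against 1782945 in that of 10× E14.5. Each ratio had 0.5 added to its counts, and counting error was not taken into account here.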

How the results depend on the processing

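No member called in the main run changed sign in an alternative run that tested it. Members not called in the main run were not checked for sign in this way. Of the values of called members and of *Wnt5a* under these alternatives, 731 kept their side of the threshold and 79 lost their call. Runs in which a member failed the filter gave no value and are in neither number. On 10× sums only, for example, just 9 of the 21 members called between DF-like and LP-like cells had a value. Between DF-like and LP-like cells 21 members were called, 10 on 10× sums only and 3 on ss2 sums only, where fewer sums enter the fit. Between LM-like and EM-like cells the 6 calls became 0 on 10× and 3 on ss2. Between N-like and EM-like cells the 5 calls became 15 with DESeq2, 16 at resolution 0.4, 9 with all deposited cells and 2 on ss2. Between LP-like and EP-like cells the 2 calls became 7 with DESeq2, 4 with members in the clustering, and 0 on either platform alone. At resolutions 0.4 and 1.2 no EP-like cluster was named, so that comparison was not made. Between days, the 1 call in LP-like cells became 0 with DESeq2, and the 0 calls in DF-like cells became 1 with DESeq2 and 2 at resolution 0.4. Apart from the effect of fewer sums, the cause was not tested. Shares of all genes called are given for the main run only. A change in these counts may thus be shared by all genes. When single pools or sums were left out, the counts ran from 17 to 19 (DF-like against LP-like), 18 to 21 (EM-like against LP-like), 2 to 7 (LM-like against EM-like, 2 without ss2 E14.5), 0 to 8 (LP-like against EP-like, 0 without the ss2 EP-like sum, 8 without ss2 E14.5), 3 to 10 (N-like against EM-like), and, between days, 0 to 5 (EM-like), 0 to 1 (LP-like) and 0 to 2 (DF-like). The median depth of 1608 UMIs per cell at E16.5 limits low members there. No paired analysis was possible because of what the labels' replicate numbers name, single cells or columns that were not used, so classes were paired by pool and not by number. The alternatives for the bulk comparisons were not run.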
